A study of Mus musculus with 29 samples.

Results

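The comparison described here is that of trauma against no trauma in the medial prefrontal cortex of mice that the submitters grouped as Res-T. Its members are 7 libraries of the 29 samples in the series, 4 without trauma (replicates 1 to 4) and 3 with trauma (replicates 1, 3 and 4), taken by their labels, and all 6080 genes of the prefrontal table are compared. The 13 prefrontal libraries with values also hold 2 Sus-T libraries without trauma and 4 with trauma, which share the model fit. All mice were B6.Cg-Tg(Thy1-YFP)HJrs/J, a transgenic line in which a yellow fluorescent protein is driven by Thy1 regulatory sequence and marks a subset of projection neurons, and no group lacked it. The labels gave the sorted cells as pyramidal neurons. They did not give age, sex, the kind of trauma, the time after it, or what the names Res-T and Sus-T stand for, nor whether each library came from its own animal. P-values therefore measure the spread between these libraries, which may be technical. The labels' protocol spoke of punches of the amygdala, enzymatic dissociation, sorting into lysis buffer and an ultra-low-input RNA-seq kit with removal of ribosomal RNA, and the prefrontal samples carried the same text.

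Pyramidal neurons are the excitatory projection neurons of the cortex, and those of the medial prefrontal cortex reach the amygdala and take part in fear extinction. Their transcripts are mixed, in any dissociated and sorted fraction, with some RNA of neighbouring cells such as oligodendrocytes, whose myelin wraps their axons. Genes for ribosomes, respiration and protein turnover are active in all cells and are high in large neurons.

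Expression is given as the normalized signal that the authors deposited, which has no physical unit. Totals of the 13 prefrontal libraries ran from 2095138 to 2444486, and read depth is not known from the files. Before any test, the libraries themselves showed a feature that every result below depends on. On the first principal component of the log2 values, which held 34.6% of the variance, Res-T without trauma replicate 4 scored 42.4, among the 3 with-trauma libraries at 40.1 to 47.6. The other 3 libraries without trauma scored -31.0, -7.1 and 6.8, and the 6 Sus-T libraries -28.5 to -14.5. Across genes, replicate 4 correlated with with-trauma replicates 1, 3 and 4 at r = 0.980, 0.948 and 0.946, and the other libraries without trauma did so at 0.793 to 0.934. With its own group mates replicate 4 correlated at r = 0.815 to 0.910, a range close to the 0.831 to 0.926 among those 3 libraries. Across all 6080 genes these correlations describe libraries and are not tests, since genes are not independent replicates.

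**Figure D1:**
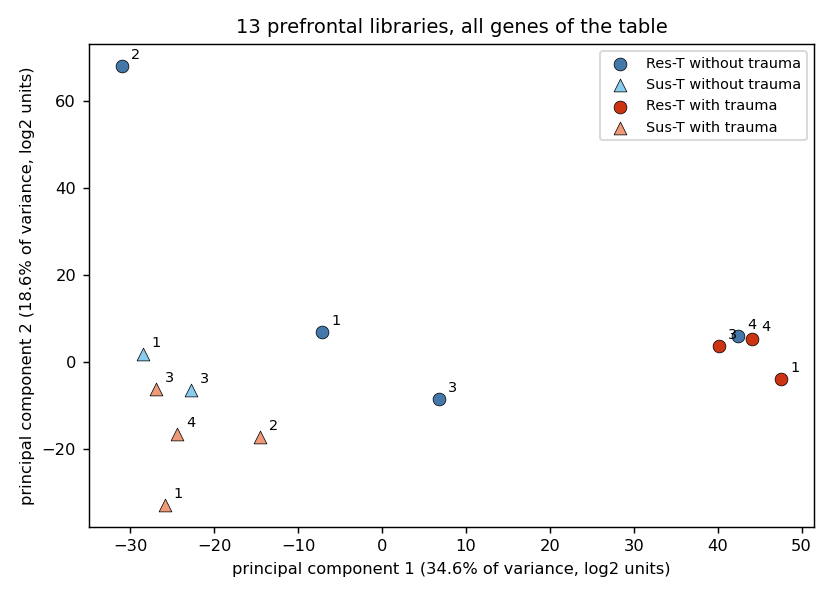
Scores of the 13 prefrontal libraries on principal components 1 (x axis) and 2 (y axis) of the log2 values, in log2 units, with replicate numbers beside the points, circles for Res-T and triangles for Sus-T. Res-T without trauma replicate 4, at 42.4 on the first component, lies among the 3 with-trauma Res-T libraries at 40.1 to 47.6, and replicate 2 lies apart on the second at 68.0.

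A further dependence concerned Res-T with trauma replicate 1. On the scale of log2 of the value minus 1, the 13 libraries lacked 2 of the 12 dimensions they could span, and this library carried the largest weight in those missing dimensions at 0.731, against 0.264 or less for each other library. A least-squares fit gave it as 0.333 of Res-T without trauma replicate 4, 0.290 of with-trauma replicate 3 and 0.366 of with-trauma replicate 4, with R squared 0.9931, where the best fit from 3 other Res-T libraries reached 0.8046 to 0.9665 for the remaining 6. The residual SD of that fit was 0.178 on the log2 scale. With-trauma replicate 1 was thus closely described by the other libraries, including Res-T without trauma replicate 4. It was still counted as a full replicate with all 7 libraries, in fits and permutation tests alike. The same held in the repeat without Res-T without trauma replicate 4. The p-values and standard errors there do not allow for this dependence. Whether columns were corrected, filled in or mislabelled before deposit was not tested, and the counts of 0 and 588 genes given here would both mean something else in that case. Results are given with all 7 libraries, without replicate 4 of the group without trauma, and, where it matters, without with-trauma replicate 1 as well.

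With all 7 libraries, no gene passed the threshold of an adjusted p under 0.05. The count was 0 of 6080 genes (0%) in limma's moderated test, and the smallest adjusted p was 0.105. At an unadjusted p under 0.05 there were 899 genes, 242 higher with trauma (3.98% of all genes) and 657 lower (10.8%). In 479 genes (7.88%) all 3 with-trauma libraries lay below all 4 without trauma, and in 316 genes (5.20%) all lay above. Estimating library weights, a step whose iterations stopped before converging, gave 668 genes past the threshold, 180 higher and 488 lower. Leaving out any single Res-T library other than replicate 4 without trauma left the count at 0.

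The genes with the smallest p among those lower with trauma included a small nucleolar RNA host gene, enzymes of membrane lipids and a chaperone. Snhg11, a host gene of small nucleolar RNAs, read 361, 342, 149 and 175 without trauma in replicates 1 to 4 and 82.6, 62.1 and 63.3 with trauma in replicates 1, 3 and 4. Every with-trauma library was below every library without trauma, and the log2 change was -1.78 ± 0.33 (SE, 3 against 4 libraries, adjusted p = 0.105). St3gal5, the sialyltransferase that makes the ganglioside GM3, read 144, 182, 106 and 47.4 without trauma and 26.5, 22.9 and 20.4 with it (log2 -2.16 ± 0.41, adjusted p = 0.105). The groups did not overlap, and replicate 4 was the lowest of the libraries without trauma. Smpd3, a neutral sphingomyelinase that releases ceramide, read 78.3, 90.7, 73.6 and 26.7 against 14.8, 10.6 and 12.3 (log2 -2.21 ± 0.44, adjusted p = 0.105), again apart and with replicate 4 lowest of its group.

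Hspe1, the co-chaperonin that folds proteins in mitochondria, read 119, 99.8, 70.6 and 54.3 without trauma and 25.5, 10.6 and 27.4 with trauma (log2 -2.01 ± 0.40, adjusted p = 0.105). Its groups were apart in all 7 libraries. Glcci1, a glucocorticoid-induced transcript, read 619, 689, 531 and 323 against 228, 185 and 181 (log2 -1.40 ± 0.28, adjusted p = 0.105), also without overlap. The sixth, Gm7536, annotated as a processed pseudogene, had a log2 change of -4.62 ± 0.91 with 29.8 to 388 without trauma and 2.80 to 6.25 with it. Reads of a pseudogene can belong to its parent gene, so that value is uncertain.

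Of the genes higher with trauma none passed either, and the 6 with the smallest p had different functions. St18, a zinc-finger transcription factor of the myelin transcription factor family, read 254, 236, 392 and 724 without trauma and 827, 875 and 887 with trauma (log2 1.25 ± 0.32, adjusted p = 0.169). Here too the groups were apart, and replicate 4 lay nearer to the with-trauma libraries than to its mates. Csf1, the growth factor of microglia and macrophages, read 236, 149, 224 and 327 against 426, 509 and 475 (log2 1.05 ± 0.28, adjusted p = 0.169). Atp11a, a phospholipid flippase, read 773, 836, 1044 and 1737 against 1798, 1794 and 1860 (log2 0.80 ± 0.23, adjusted p = 0.193). Replicate 4 lay just below the with-trauma values, apart from its 3 group mates. Edrf1 (log2 1.24 ± 0.34), Fnbp1, a membrane-bending protein of endocytosis (0.83 ± 0.24), and Mast4, a microtubule-associated kinase (0.70 ± 0.20), completed the 6, with adjusted p from 0.184 to 0.202 and no overlap between groups.

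**Figure D2:**
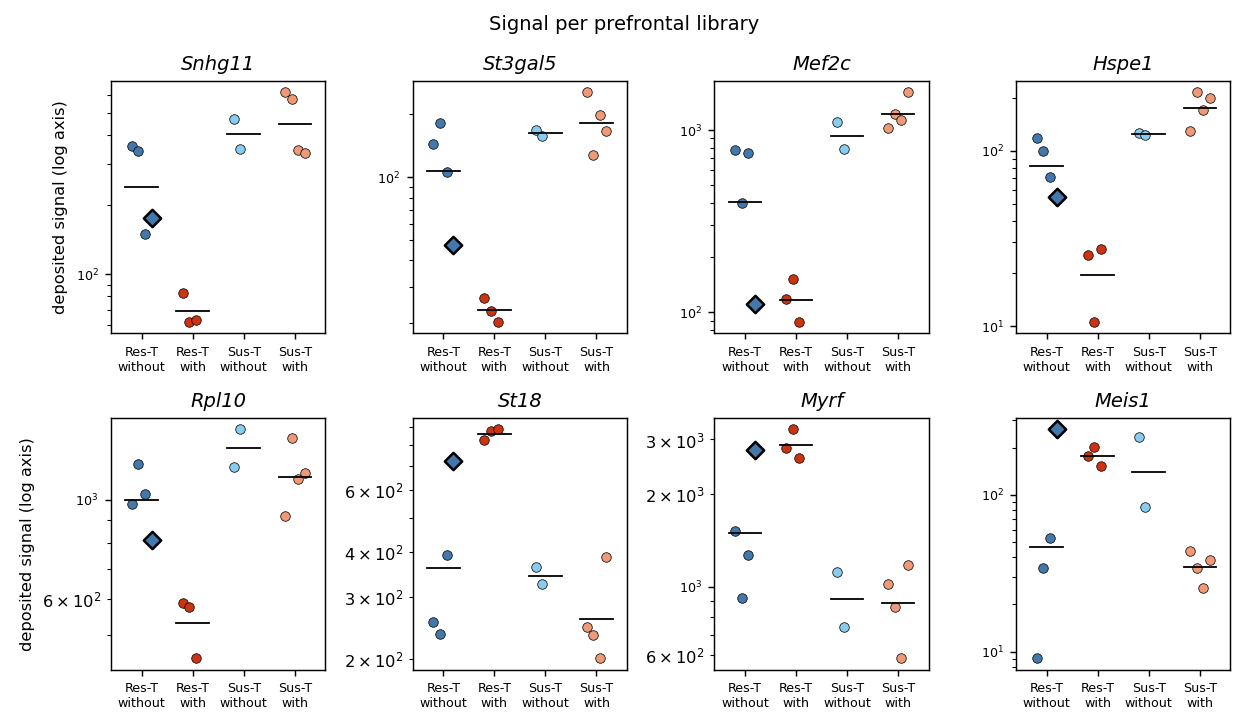
Deposited signal on a log axis for 8 genes in each prefrontal library, by group (Res-T without and with trauma, Sus-T without and with trauma). Each point is a library, the diamond is Res-T without trauma replicate 4, and the bar is the group mean on the log2 scale. For Mef2c the diamond, at 111, lies among the with-trauma libraries at 88.8 to 152, and for Snhg11, at 175, it lies above them.

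Without replicate 4 of the group without trauma, 588 genes passed the threshold, 145 higher with trauma (2.38% of all genes) and 443 lower (7.29%). Of these, 87 were at least 2-fold higher and 355 at least 2-fold lower. This library was left out with its values known, so the repeat is not an independent test, and its calls describe the other 6 libraries. With the median of each library set equal, 558 genes passed, 246 of them higher, as against 145 of 588. This scaling moved the median log2 change of all genes from -0.063 to 0.086. The count depended on single libraries in turn. It was 258 without Res-T without trauma replicate 1, 186 without replicate 2, 938 without replicate 3, 224 without with-trauma replicate 4 and 135 (2.22%) without with-trauma replicate 1, and all 135 were among the 588. With the mean of the oligodendrocyte markers as a covariate the count was 46, and that mean itself separated the groups in these 6 libraries.

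Replicate 4 itself lay on the trauma side for most of these genes. It was placed between 0, the mean of the other libraries without trauma, and 1, the mean with trauma. Its median over the 588 genes was 0.97, and in 395 of them (67.2%) it lay within or beyond the with-trauma libraries. The share over all genes was not computed against all with-trauma libraries, so the 67.2% does not set these genes apart. Since with-trauma replicate 1 could be closely fitted with a share of replicate 4, the same was measured over the 135 genes called without either library, against with-trauma replicates 3 and 4. The median position was 0.90 with quartiles of 0.71 and 1.08, and 123 of the 135 genes (91.1%) were nearer to the trauma mean, against 66.2% of all 6080 genes. Replicate 4 lay within or beyond with-trauma replicates 3 and 4 in 54.1% of the 135 genes, below the 64.0% of all genes. The 135 genes were called on a difference between the libraries that set 0 and 1. Over all genes, many without such a difference, the position spread more widely, with quartiles of 0.17 and 1.51. The shares over all genes are therefore not a like comparison and do not set the 135 genes apart.

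**Figure D3:**
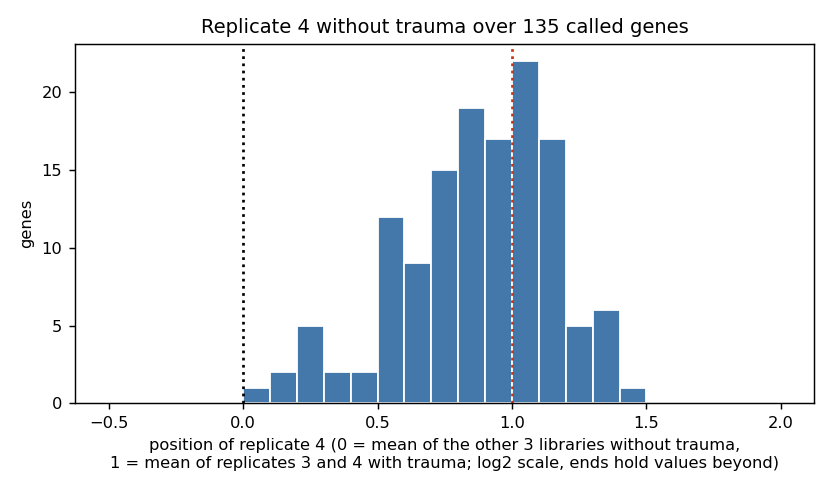
Position of Res-T without trauma replicate 4 on the log2 scale for the 135 genes called without it and without with-trauma replicate 1 (x axis, 0 is the mean of the other 3 libraries without trauma and 1 the mean of with-trauma replicates 3 and 4) against the number of genes. Most genes lie around 1, with a median of 0.90.

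The genes with the smallest p in the repeat included, among the falls, a transcription factor, a chromatin protein and proteins of vesicle transport. Mef2c, an activity-dependent transcription factor of excitatory neurons on chromosome 13, read 779, 399 and 745 in replicates 1 to 3 without trauma, 111 in replicate 4, and 118, 152 and 88.8 with trauma. Without replicate 4 it fell by 2.38 ± 0.28 on the log2 scale (adjusted p = 0.000521). With all 7 libraries the change was -1.77 ± 0.47 (adjusted p = 0.169), and replicate 4 lay inside the with-trauma range. Pwwp2a, a chromatin protein that binds the histone variant H2A.Z, read 281, 284 and 276 without trauma, 60.1 in replicate 4, and 55.3, 50.2 and 52.0 with trauma (log2 -2.40 ± 0.25 without replicate 4, adjusted p = 0.000172). The other 3 libraries without trauma spanned a narrow range, and replicate 4 lay next to the with-trauma libraries.

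Exoc6, a subunit of the exocyst that tethers vesicles to the membrane, read 305, 482 and 163, then 39.1 in replicate 4, against 31.9, 48.2 and 26.9 with trauma (log2 -3.02 ± 0.37 without replicate 4, adjusted p = 0.00058). Vti1a, a SNARE of the Golgi and endosomes (log2 -2.22 ± 0.32), and Zfyve9, a membrane anchor for SMAD proteins on endosomes (-2.64 ± 0.36), also fell in the repeat with adjusted p of 0.00147 and 0.0012. Replicate 4 lay beyond the with-trauma mean in both. Otub1, a deubiquitinase, read 278, 539 and 132 without trauma, 46.5 in replicate 4 and 33.5, 42.2 and 30.8 with trauma (log2 -2.91 ± 0.39, adjusted p = 0.00101). Nhsl2 (-2.69 ± 0.34), Tcaf1, a regulator of the TRPM8 channel (-2.32 ± 0.31), Lrrc59 (-2.67 ± 0.38) and Inpp4a, a phosphoinositide phosphatase (-1.42 ± 0.21), fell with adjusted p from 0.000688 to 0.00147, together with St3gal5 (-2.55 ± 0.34) and Smpd3 (-2.60 ± 0.38). These 12 genes had the smallest p among the falls, and all 12 also passed without with-trauma replicate 1. The largest fitted falls were those of Zbtb46 (-3.52 ± 0.87), Elmod1 (-3.48 ± 0.61) and Kcnb2, a delayed-rectifier potassium channel (-3.17 ± 0.68), with signals of 1.61 to 12.6 in the with-trauma libraries, and Zbtb46 was no longer past the threshold without with-trauma replicate 1 (adjusted p = 0.0686).

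The rises with the smallest p in the repeat included genes known from oligodendrocytes. Erbb3, the neuregulin receptor of oligodendrocytes, read 217, 342 and 356 without trauma, 990 in replicate 4, and 924, 1168 and 758 with trauma (log2 1.65 ± 0.28 without replicate 4, adjusted p = 0.00312). Anln, a myelin septin adaptor, read 590, 668 and 788, then 2247 in replicate 4, against 1818, 2011 and 1378 (1.34 ± 0.25, adjusted p = 0.00609). Replicate 4 was the highest of all 7 for Anln and lay inside the with-trauma range for Erbb3. Myrf, the transcription factor that switches on myelin genes, read 1513, 922 and 1267, then 2777, against 2816, 3240 and 2617 (1.25 ± 0.26, adjusted p = 0.00833). St18 (1.59 ± 0.26), Atp11a (1.05 ± 0.17), Fnbp1 (1.03 ± 0.21), Ttyh2, a membrane protein of the tweety family (1.10 ± 0.21), Frmd4b (1.24 ± 0.25), Plxnb3, a semaphorin receptor (1.34 ± 0.27), Tmeff2 (1.04 ± 0.21), and Bche, butyrylcholinesterase (2.39 ± 0.49), rose with adjusted p from 0.00279 to 0.00811. The largest fitted rises were Meis1, a homeobox factor, from 9.06, 34.1 and 53.3, with 262 in replicate 4, to 176, 203 and 153 (2.73 ± 0.55, adjusted p = 0.00811), P4ha2, a collagen prolyl hydroxylase (2.67 ± 0.71, adjusted p = 0.0264), and Faim, an inhibitor of cell death (2.66 ± 0.67, adjusted p = 0.0217). P4ha2 read 1.94 to 5.53 in the 3 libraries without trauma, at the low end of the table, and neither it nor Faim passed without with-trauma replicate 1.

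Cytosolic ribosomal proteins, the protein subunits of the ribosome, had the lowest median change among lists with at least 4 measured genes. Of 16 measured members 13 were lower at an unadjusted p under 0.05 with all 7 libraries and none higher, and the median log2 change was -0.95, against -0.04 over all genes. In all genes 10.8% were lower by that measure. Without replicate 4, 7 members (43.8%) fell, against 7.29% of all genes, and none rose (median -1.05, all genes -0.06). Without with-trauma replicate 1 as well, 5 of the 16 fell, against 1.97% of all genes. The summed signal of the 16 was 0.339%, 0.459%, 0.291% and 0.282% of the total in replicates 1 to 4 without trauma and 0.195%, 0.210% and 0.134% with trauma, without overlap. The 6 Sus-T libraries held 0.352% to 0.493%.

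Rpl10, a protein of the large subunit, read 978, 1198, 1031 and 815 without trauma and 589, 577 and 443 with trauma (log2 -0.90 ± 0.20 with all libraries, adjusted p = 0.121, and -1.0 ± 0.20 without replicate 4, adjusted p = 0.00721). Rps15a, of the small subunit, read 336, 391, 329 and 319 against 190, 130 and 159 (-1.15 ± 0.26 without replicate 4, adjusted p = 0.014). Unlike most genes called in the repeat, both had replicate 4 above the with-trauma libraries. Rps6, the phosphorylated protein of the small subunit, read 925, 1320, 778 and 914 against 499, 635 and 258 (-1.18 ± 0.28, adjusted p = 0.0167). Rpl18 read 176, 445, 90.3 and 145 against 60.2, 53.4 and 46.4 (-1.84 ± 0.42, adjusted p = 0.014), and Rpl10a 422, 493, 345 and 250 against 197, 193 and 157 (-1.19 ± 0.26, adjusted p = 0.0105). All 5 of these genes kept apart groups in all 7 libraries. Rps13 (-1.03 ± 0.26) and Rpl3 (-1.13 ± 0.27) fell in the repeat only with with-trauma replicate 1 included, with adjusted p of 0.0718 and 0.0663 without it. Ribosomal protein genes have many processed pseudogenes of near-identical sequence, so the level of a single member is uncertain.

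Transcripts of ribosomal proteins begin with a run of pyrimidines, the terminal oligopyrimidine tract, through which their translation is regulated together. The starts of 4 members that fell are shown because the members moved together, from 30 bases before the RefSeq start to 20 after it on GRCm38.p6, with the tract in capitals. Rps6 is at chr4:86857348-86857397 on the minus strand, Rps15a at chr7:118116128-118116177 on the minus strand, Rpl18 at chr7:45718041-45718090 on the plus strand, and Rpl10, in which no tract was found, at chrX:74270786-74270835 on the plus strand.
Rps6: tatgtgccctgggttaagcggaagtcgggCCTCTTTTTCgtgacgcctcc
Rps15a: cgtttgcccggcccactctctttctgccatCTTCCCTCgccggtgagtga
Rpl18: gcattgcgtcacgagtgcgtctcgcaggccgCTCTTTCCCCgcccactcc
Rpl10: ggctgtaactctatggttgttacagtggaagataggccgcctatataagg

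A tract was counted as a C followed by at least 5 pyrimidines, on the gene's strand, within 10 bases before and 12 after the listed start. A gene counted if any of its listed starts matched. The tract was found for 9 of the 14 measured ribosomal protein genes with an entry (64.3%) and for 4 of 6 among those that fell. For Rpl10a, counted among those 4, the run lay wholly before the listed start, and its other listed start had no run. Of all genes of the table with an entry, 981 of 4811 held a match (20.4%). Counted by window and not by gene, the share was 16.6% of all 32851 listed windows. A match is a description of these letters and not a measure of translation.

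None of the genes of respiration and mitochondrial supply passed with all 7 libraries. Of 41 nuclear-encoded subunits of the respiratory chain and ATP synthase, 15 (36.6%) were lower at an unadjusted p under 0.05 with all libraries, against 10.8% of all genes, and none higher (median log2 -0.48). Without replicate 4, 7 (17.1%) fell, against 7.29% of all genes, and none rose (median -0.59). Sdhd, a membrane anchor of complex II, read 96.8, 188, 107 and 50.2 without trauma and 29.0, 30.8 and 22.4 with trauma (log2 -2.16 ± 0.38 without replicate 4, adjusted p = 0.00442). The groups were apart, with replicate 4 lowest of its group. Uqcrb of complex III (-1.47 ± 0.33, adjusted p = 0.0128) and Ndufa10 of complex I (-1.67 ± 0.38, adjusted p = 0.0138) fell too, and neither passed without with-trauma replicate 1. Only 1 of the 41 subunits passed there, as a fall, and 1.97% of all genes fell there. None of the 13 protein-coding transcripts of the mitochondrial genome was in the table.

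Mitochondrial ribosome and import genes had 10 of 48 members (20.8%) lower at an unadjusted p under 0.05, against 10.8% of all genes. None was higher (median log2 -0.49). In the repeat 3 of them (6.25%) fell, a share near the 7.29% of all genes. Tomm20, the receptor of the outer-membrane import channel, read 593, 887, 452 and 339 against 253, 249 and 217 (-1.37 ± 0.24 in the repeat, adjusted p = 0.00391), with no overlap in all 7 libraries. Of 31 proteasome subunits and assembly factors 9 (29%) were lower at an unadjusted p under 0.05, against 10.8% of all genes. None was higher (median -0.38). In the repeat 7 (22.6%) fell, against 7.29% of all genes. Without with-trauma replicate 1 as well, 1 of the 31 still fell, and 1.97% of all genes did. Pomp, the chaperone that assembles the catalytic core, read 127, 280, 105 and 44.4 against 31.4, 29.7 and 34.9 (-2.25 ± 0.42 in the repeat, adjusted p = 0.00554). Translation factors had a median of -0.12, with 4 of 37 (10.8%) falling and 1 rising in the repeat, and chaperones a median of 0.00, with 2 of 33 (6.06%) falling, both near the share of all genes.

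The median change over all genes moved with transcript length in these libraries. The genes were put in 5 groups of nearly equal size by their longest GENCODE transcript. In the group with the shortest transcripts, 168 to 2249 nucleotides, the median log2 change with all 7 libraries was -0.28, and in the group with the longest it was 0.05. In Sus-T libraries the same medians were 0.01 and 0.02. The falls called in the repeat were not mainly of short transcripts. Their median length was 3862 nucleotides, and that of the rises 4605, against 3814 for all genes. The shortest group held 97 falls and 15 rises, and the longest 86 falls and 51 rises. The median length was 1608 nucleotides for the ribosomal proteins, 1661 for the respiratory subunits and 1955 for the proteasome, against 3814 for all genes. Genes of the shortest group outside these lists and the mitochondrial one, 1129 in number, had a median of -0.25. The part of transcript length in the changes of these lists was not tested.

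**Figure D4:**
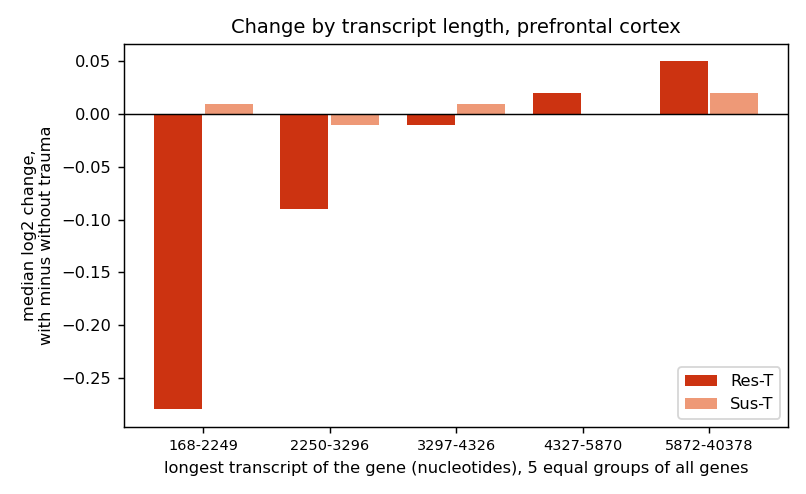
Median log2 change with minus without trauma (y axis) in prefrontal Res-T and Sus-T libraries over 5 groups of the 6080 genes by the length of their longest transcript in nucleotides (x axis). In Res-T the bars run from -0.28 for the shortest genes to 0.05 for the longest, and in Sus-T they stay between -0.01 and 0.02.

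The lists of excitability and synaptic genes had few measured members. With all libraries, 5 of the 7 measured genes of the sodium, calcium and HCN channel list (71.4%) were lower at an unadjusted p under 0.05. Of all genes 10.8% were. All 5 were calcium channel subunits. The only sodium channel gene measured, Scn3b, was not among them (log2 -0.29, and -0.01 without replicate 4), and no HCN gene was measured. The median log2 change of the 7 genes was -0.77. Without replicate 4, 3 (42.9%) fell, against 7.29% of all genes, and none of the 3 passed without with-trauma replicate 1. Cacna2d2, an auxiliary subunit of calcium channels, read 112, 183 and 75.5 without trauma, 26.1 in replicate 4, and 22.1, 15.5 and 31.7 with trauma (-2.33 ± 0.52, adjusted p = 0.0124), so replicate 4 lay inside the with-trauma range. Cacnb4, a further auxiliary subunit, read 636, 854, 663 and 579 against 435, 396 and 387 (-0.81 ± 0.21, adjusted p = 0.0235), apart in all 7 libraries. Their median transcript length was 7436 nucleotides, above that of all genes.

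In the repeat, 3 of 20 postsynaptic scaffold genes (15%) fell and none rose (median log2 -0.43), and 3 of 19 genes of synaptic vesicles and release (15.8%) fell (median -0.24), against 7.29% of all genes. With so few calls these counts do not set either list apart. Dlg3, a scaffold of glutamate receptors, read 90.9, 203 and 86.2 without trauma, 21.6 in replicate 4 and 18.3, 9.97 and 36.1 with trauma (-2.57 ± 0.47, adjusted p = 0.00507). Nsf, the ATPase that recycles SNARE complexes, read 351, 479 and 288, then 128, against 128, 197 and 105 (-1.39 ± 0.28, adjusted p = 0.00749). In both, the 3 other libraries without trauma lay above all with-trauma libraries and replicate 4 did not. Plxna4, a semaphorin receptor of axons, fell by 2.0 ± 0.36 on the log2 scale in the repeat (adjusted p = 0.0048), and Ppp3cb, a catalytic subunit of calcineurin, fell by 1.10 ± 0.22 (adjusted p = 0.00811). Of 8 ionotropic glutamate receptor genes 2 fell (median 0.00), and of 10 GABA and glycine receptor genes none passed (median -0.42).

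Oligodendrocyte markers had the highest median change of all lists. All 24 measured markers had a positive log2 change with all 7 libraries (median 0.57), as did 2827 of all 6080 genes. At an unadjusted p under 0.05, 5 were higher, against 3.98% of all genes, and none passed the threshold. Without replicate 4, 13 (54.2%) rose, against 2.38% of all genes (median 0.91), and 3 rose without with-trauma replicate 1 as well, against 15 of 6080 genes (0.247%). Their levels by library were uneven within the group without trauma. The markers' summed signal was 4.79%, 4.48% and 4.05% of the total in replicates 1 to 3 without trauma, 10.6% in replicate 4, and 8.24%, 9.08% and 6.69% with trauma, while the 6 Sus-T libraries held 3.17% to 5.45%. Replicate 4 was the highest of the 13. The means of 5.97% ± 3.08 (SD, n = 4) and 8.0% ± 1.21 (SD, n = 3) were not distinguished by an exact permutation test (two-sided p = 0.343, adjusted p = 0.857 over 10 marker lists, smallest possible p = 0.0571).

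Mbp, a structural protein of myelin, read 12889 to 17015 without trauma and 14542 to 21735 with it, and passed in neither fit. Tmem88b, a membrane protein of oligodendrocytes, read 1139, 1050 and 1232, then 2559 in replicate 4, against 2543, 3088 and 2564 (1.26 ± 0.28 in the repeat, adjusted p = 0.0128). More oligodendrocyte RNA per library and more oligodendrocyte transcript per cell cannot be told apart in bulk samples. The part of this signal in the other changes was not tested. In the repeat, the fit with the marker mean as a covariate cannot measure it, because there that mean itself separated the Res-T groups. With all 7 libraries the groups overlapped, since replicate 4 had the highest mean log2 signal of the markers, at 11.89. The covariate fit with all libraries had 0 genes past the threshold. It had 346 at an unadjusted p under 0.05, against 899 without the covariate.

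Of 24 markers of pyramidal neurons, only Mef2c and Arpp21 had values in the prefrontal table. Both were lower at an unadjusted p under 0.05 with all libraries (median log2 -1.36), as were 10.8% of all genes. Mef2c alone of the 2 fell in the repeat, in which 7.29% of all genes fell. The summed signal of Mef2c and Arpp21 was 0.0469%, 0.0355% and 0.0444% of the total in replicates 1 to 3 without trauma, 0.0114% in replicate 4, and 0.0110%, 0.0131% and 0.00831% with trauma (exact permutation p = 0.114, two-sided, adjusted p = 0.571). Replicate 4 lay in the with-trauma range, apart from the other 3 libraries without trauma. Defining genes such as Slc17a7 and Camk2a had no values, so the labelled cell type could not be checked on its usual markers. Upper-layer cortical markers had a median log2 change of -0.49 over 11 genes. In the repeat 2 fell (18.2%, against 7.29% of all genes) and 1 rose (9.09%, against 2.38%). The riser, Enpp2, is also an oligodendrocyte marker. Deep-layer markers (9 genes, median -0.17), interneuron markers (4 genes, -0.28) and astrocyte markers (14 genes, -0.06) had no member past the threshold in either fit. Of 10 marker lists tested by their share of the total, the smallest exact p was 0.0571 for 3 sex-linked transcripts (adjusted p = 0.571), which is the smallest this design allows.

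**Figure D5:**
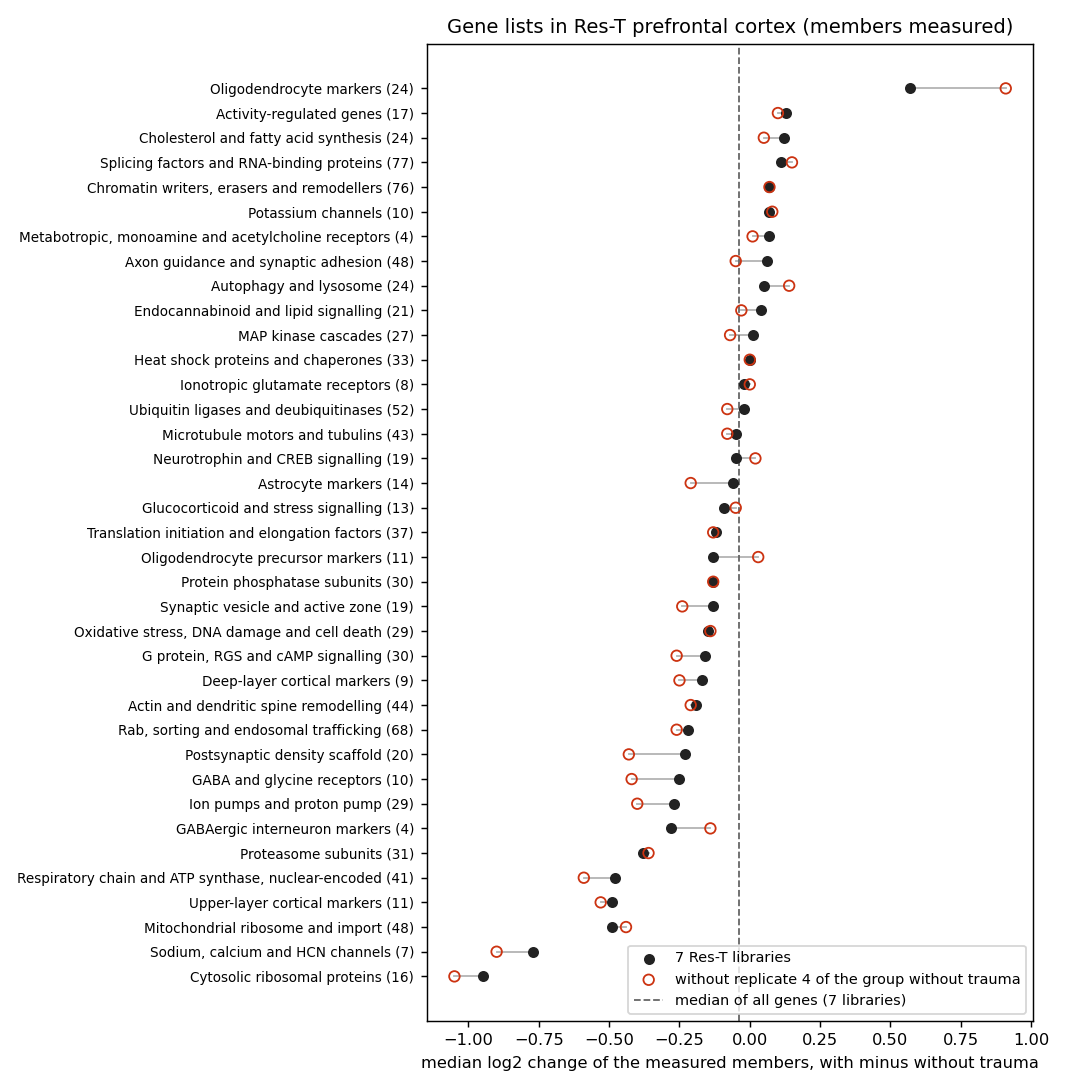
Median log2 change of the measured members of each gene list (x axis), with minus without trauma, for lists with at least 4 members (y axis, member count in brackets), with all 7 Res-T libraries (filled) and without replicate 4 of the group without trauma (open). Ribosomal proteins lie lowest at -0.95 and oligodendrocyte markers highest at 0.57, and the dashed line is the median of all genes at -0.04.

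Genes induced by neuronal activity or by stress hormones passed at a share near that of all genes, as far as such short lists show. Of 17 activity-regulated genes only Rheb, a GTPase that activates mTORC1, fell in the repeat (log2 -1.66, adjusted p = 0.0105). This is 5.88% against 7.29% of all genes, and none rose. Of 13 listed glucocorticoid and stress genes none passed in either fit. Glcci1, the glucocorticoid-induced transcript named above, is not in that list. It was called in the repeat, also without with-trauma replicate 1. Fos, an immediate early gene, read 1280, 4615, 1923 and 4743 without trauma and 3009, 2854 and 3910 with trauma, so the groups overlapped widely (log2 0.25 ± 0.46, 95% interval -0.71 to 1.22, adjusted p = 0.825). Nr4a1, a further early gene, read 250 to 665 without trauma and 302 to 451 with it (-0.08 ± 0.35, interval -0.83 to 0.66). Homer1, a postsynaptic scaffold with an activity-induced form, read 256 to 504 against 310 to 341 (-0.09 ± 0.24, interval -0.59 to 0.42). Gria2, the AMPA receptor subunit that sets calcium entry, read 1009 to 1398 against 631 to 2530 (0.16 ± 0.34, interval -0.55 to 0.87). The 4 intervals include 0 and span changes in both directions, so no change was detectable with these libraries, which does not show that there was none.

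Over all genes 2.38% rose and 7.29% fell in the repeat, and several of the remaining lists were near these shares. Chromatin genes had 3 rises (3.95%) and 5 falls (6.58%) among 76, and splicing and RNA-binding genes 3 (3.90%) and 6 (7.79%) among 77. Genes of Rab proteins and sorting had 1 rise and 4 falls among 68 (5.88% falling), actin and spine genes 1 and 4 among 44 (9.09%), MAP kinase genes 1 and 3 among 27 (11.1%), and ubiquitin genes 0 and 3 among 52 (5.77%). G protein and cAMP genes had 1 rise and 5 falls among 30 (16.7%), genes of oxidative stress and cell death 0 and 3 among 29 (10.3%), and axon guidance and adhesion genes 5 (10.4%) and 4 (8.33%) among 48. Dnmt1, the maintenance DNA methyltransferase, read 250, 204, 226 and 133 against 97.0, 87.2 and 76.5 (-1.38 ± 0.26, adjusted p = 0.00554). Microtubule genes had 3 rises, among them Map7 (1.01 ± 0.28, adjusted p = 0.0315), and 1 fall among 43. The phosphatase list had 5 falls among 30 (16.7%) and 1 rise, Ptprd, a receptor tyrosine phosphatase of synapse formation, from 4632, 4369 and 5329, with 9299 in replicate 4, to 8847, 10042 and 8438 (0.93 ± 0.24, adjusted p = 0.0218).

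The Sus-T comparison, 2 libraries without and 4 with trauma, gives a reference from other mice of the same region. It had 0 genes past the threshold in limma's test and 91 at an unadjusted p under 0.05, and its median over the ribosomal list was -0.07 and over the oligodendrocyte list -0.05. With all 7 Res-T libraries the difference between the trauma effects passed in 0 genes, with 371 at an unadjusted p under 0.05 and a smallest adjusted p of 0.774. Without replicate 4 it passed in 12 genes (0.197%), 9 with the Sus-T effect higher and 3 with it lower. Mef2c had a log2 difference of 2.79 (adjusted p = 0.00941), with Sus-T libraries at 1101 and 784 without and 1030 to 1608 with trauma, and Pwwp2a 2.60 (adjusted p = 0.00933). Meis1 had -4.71 (adjusted p = 0.0309), with Sus-T values of 234 and 83.8 without and 25.6 to 43.8 with trauma, and Klf11, a Krüppel-like repressor, -3.97 (adjusted p = 0.0479). St18 had -1.99, Exoc6 3.08, Nhsl2 2.88, Zfyve9 2.78, St3gal5 2.70, Fam19a5, a secreted neuronal peptide, 2.54, Tcaf1 2.40 and Glcci1 1.90, with adjusted p from 0.0309 to 0.048. Without with-trauma replicate 1 as well, the count was 2 genes.

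In the amygdala of Res-T mice, measured in 7 separate libraries and a separate table, 610 of 9872 genes (6.18%) passed for trauma. Of the 5274 genes shared with the prefrontal table, 2681 were lower there and 2593 higher, 178 (3.38%) past the threshold lower and 101 (1.92%) higher. Of 129 rises of the prefrontal repeat that had an amygdala value and are not predicted genes or pseudogenes, 119 were lower with trauma in the amygdala, 51 of them past the threshold, and none was past it in the higher direction. Of 402 falls, 320 were higher in the amygdala, 33 past the threshold, and none was called lower. Mef2c was 1.55 higher on the log2 scale there (adjusted p = 0.006), Rpl10 1.07 higher (adjusted p = 0.01) and Atp11a lower, at -0.87 (adjusted p = 0.006). The ribosomal list had an amygdala median of 0.87 with 10 of 16 genes called higher, and the oligodendrocyte list -0.55 with 4 of 23 called lower. These are values of separate tables, and the difference between the regions was not tested.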

How the data were processed

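The authors deposited a normalized signal per gene and library, in arbitrary units, with no value of 0. The submitters' processing notes name bcl2fastq 2.20, Salmon 1.2 and the mouse build GRCm38.p6, and how the signal was scaled is not given in the sources used here. Because these are not counts, the depth is unknown and no count model was used. From the deposited signal, log2(signal + 1) was fitted in limma 3.58.1 (R 4.3.3), with trend and robust options, over 13 prefrontal libraries in 4 groups, with 9 residual degrees of freedom, and p-values were adjusted over 6080 genes (Benjamini-Hochberg, threshold 0.05). A filter on a mean signal of at least 1 removed 0 genes. Fold changes are on the log2(signal + 1) scale, which understates changes of low genes, and ± is the standard error unless SD is written. Shares were compared by exact permutation tests (Python 3.11.15, scipy 1.17.1). Symbols came from the files' gene IDs through GENCODE M21, and start sequences from RefSeq.

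The members and gene lists were chosen with earlier results of these data known. Genes were named by a rule: the 12 with the smallest p in each direction past the threshold (6 where fewer than 4 passed), up to 3 called members of each list, the 3 largest changes each way, and a short set of neuronal and myelin genes. Predicted genes were named only where few others passed, and the ribosomal genes Rps6, Rpl18, Rps13 and Rpl3 were added after their values were seen. The fit was tested on simulated data with 200 of 6080 genes changed for this comparison, and it recovered 35 of 100 genes changed 2-fold and 82 of 100 changed 4-fold, with 10 false calls. Some samples in the labels had no column and were not used here, and results on some items are not reported here.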

Additional observations from a re-analysis of the deposited data

Results flagged for a closer look

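In 77 groups of 4 libraries examined, 9 had 1 library far from the other 3, and chance gives about 1 in 20. Of these 9, 7 were at Res-T without trauma replicate 4. Many of the genes examined were named for a small p in the fit without that library, which favours genes in which it stands apart, so the count cannot be read against chance. It was far below the others for Pwwp2a, at 60.1, and far above them for Tmem88b at 2559, Anln at 2247, P4ha2 at 32.2 and Tmeff2 at 2226. Its oligodendrocyte markers held 10.6% of the total signal and its upper-layer markers 0.470%. The remaining 2 were at Res-T without trauma replicate 2, with Rps13 at 489 and deep-layer markers at 0.132% of the total.

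Without Res-T without trauma replicate 4, the trauma effect differed between Sus-T and Res-T mice in 12 genes, by the interaction term of the limma fit. The Sus-T effect minus the Res-T effect, on the log2 scale, was 3.08 for Exoc6, 2.88 for Nhsl2, 2.79 for Mef2c, 2.78 for Zfyve9, 2.70 for St3gal5, 2.60 for Pwwp2a, 2.54 for Fam19a5, 2.40 for Tcaf1 and 1.90 for Glcci1. It was -4.71 for Meis1, -3.97 for Klf11 and -1.99 for St18. With all 7 Res-T libraries none of these differences passed.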

How the results depend on the processing

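With all libraries the count of 0 genes became 668 with library weights, whose estimation did not converge, and 135 without both Res-T without trauma replicate 4 and with-trauma replicate 1. It ranged from 0 to 588 when each Res-T library was left out in turn, and was 0 under every other setting run. The interaction count of 0 ranged from 0 to 12 with libraries left out and was 2 without both. For the repeat without replicate 4, the count of 588 was 381 with quantile normalization (123 higher), 2081 with library weights and 46 with the oligodendrocyte covariate, and ranged from 135 to 938 with a further library left out. Its interaction count of 12 was 4 with quantile normalization, 19 with median centring, 2 without the trend and robust options and 456 with library weights, and ranged from 2 to 138 with a library left out.

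Replicate numbers did not pair the libraries, since deviations of same-numbered libraries correlated at -0.0166, -0.178 and -0.137. With the replicate block the counts were 0 with all libraries, 92 in the repeat and 0 for both interactions.

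Of 62 named genes called in the repeat, 14 passed with the oligodendrocyte covariate, 30 with the block and 45 without with-trauma replicate 1. Changes of sign occurred with all libraries in genes far from the threshold. With each Res-T library, or the pair, left out, the log2 change ran from -0.11 to 0.57 for Fos, from -0.33 to 0.67 for Gria2, from -0.23 to 0.10 for Homer1 and from -0.27 to 0.20 for Nr4a1. With the covariate it was -0.23 for Fos and 0.16 for Homer1, with median centring 0.03 for Homer1 and Nr4a1, and for Nr4a1 0.27 with weights and 0.02 with the block. In the repeat, Map7 (-0.02) changed sign with the covariate. The cause was not tested. Of 111 list medians recomputed, 110 shifted by less than the SD of the list's mean between libraries of a group. This is a wide bound where a group is uneven. The oligodendrocyte median, counted among the 110, went from 0.57 to 0.91 without replicate 4. The median of mitochondrial ribosome and import genes went past its bound, from -0.49 to -0.26 with quantile normalization. Unknown depth limits the precision of low signals.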
